A study of Enchytraeus albidus with 42 samples.

Results

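Adult Enchytraeus albidus, a soil-dwelling oligochaete worm, were exposed for 2 days to soil spiked with dimethoate at the reproduction EC90, and their transcript levels were compared with those of worms kept in soil moistened with water. The comparison took the 3 arrays of each of these groups, 6 of the 42 arrays of the study, chosen by their labels. Each array held RNA of whole worms with a well developed clitellum from 1 vessel of 25 g soil, pooled over the worms of that vessel (15 in the sample labels, 10 in the methods section). The EC90 is the concentration at which 90% fewer juveniles are produced, and it was 25 mg dimethoate per kg soil. Dimethoate was added in water, each concentration to 1 batch of soil that served all of its vessels, so the 3 EC90 vessels shared their spiked soil. For comparison the text uses 3 arrays each of the lower concentrations of dimethoate, EC50 (2 mg per kg), EC20 (0.5 mg per kg) and EC10 (0.1 mg per kg), and of the solvent control, whose soil had received acetone that was left to evaporate.

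Dimethoate is an organophosphate insecticide. Organophosphates block acetylcholinesterase, the enzyme that clears acetylcholine from synapses, so that cholinergic signalling to nerve and muscle persists, and exposure of animals to them has also been linked to oxidative stress. Superoxide dismutase removes superoxide radicals, chaperones hold and refold proteins, and the Arp2/3 complex starts branched actin filaments. In whole worms a lower level can come from fewer cells of a type or from less RNA per cell, and these cannot be told apart.

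A transcript counts as called if its limma p-value, adjusted for the 1035 transcripts tested by the Benjamini-Hochberg method, was below 0.05. Levels are log2 processed signals after a median shift between arrays, a difference of 1 log2 is a doubling, and SE is the standard error of a difference. Before that shift the medians of the 6 arrays lay between 7.69 and 8.33 log2. On these arrays 85.3% to 94.5% of transcripts were well above background, and 2.71% to 4.64% were saturated. Control replicates 1 and 2 lay on 1 slide, and control replicate 3 lay on another slide together with all EC50 and EC90 arrays. EC90 replicate 1 was read in a separate scan of that slide. Of the lower concentrations, EC10 replicate 1 and EC20 replicate 2, both read in 1 scan, deviated from their group means with an SD of 0.89 and 0.85 log2 over transcripts, against 0.29 to 0.62 on the other arrays. A further feature of the EC90 group was the dim end of replicate 3. For the 124 transcripts that were not well above background on any control array, the median level was 3.42 log2 on EC90 replicate 3 against 1.60 and 1.69 on EC90 replicates 1 and 2 and 1.37 to 1.74 on the control arrays. These 124 transcripts had a median change of 0.45 log2 between the groups, and 6 of them were called, whereas the other 911 had a median of -0.06. The part of this shift in the dim results was not tested.

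At EC90 33 transcripts were called, 3.19% of those tested, of which 30 (2.9%) were higher and 3 (0.29%) lower than in the control. Protein names could be given to 10 of them. Among the named ones superoxide dismutase, peptide chain release factor, Arp2, chymotrypsinogen, the chaperone gp96 and 3 forms of a mads flc-like protein rose, while a calcium-dependent protein kinase and a further mads flc-like form fell. The EC90 arrays lay entirely on one side of the control arrays in all 33, as they did in 24.6% of all transcripts (146 higher, 109 lower). For 24 of the 30 rises the control was measured above background on at least 1 array, and these rises ran from 0.80 to 5.30 log2 with a median of 1.75. Of the 24 rises 21 were of at least 1 log2, 9 of at least 2 and 6 of at least 4. In the remaining 6 the control was not well above background on any array. The lowest of the 3 EC90 arrays was replicate 2 in 29 of the 30 rises.

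**Figure D1:**
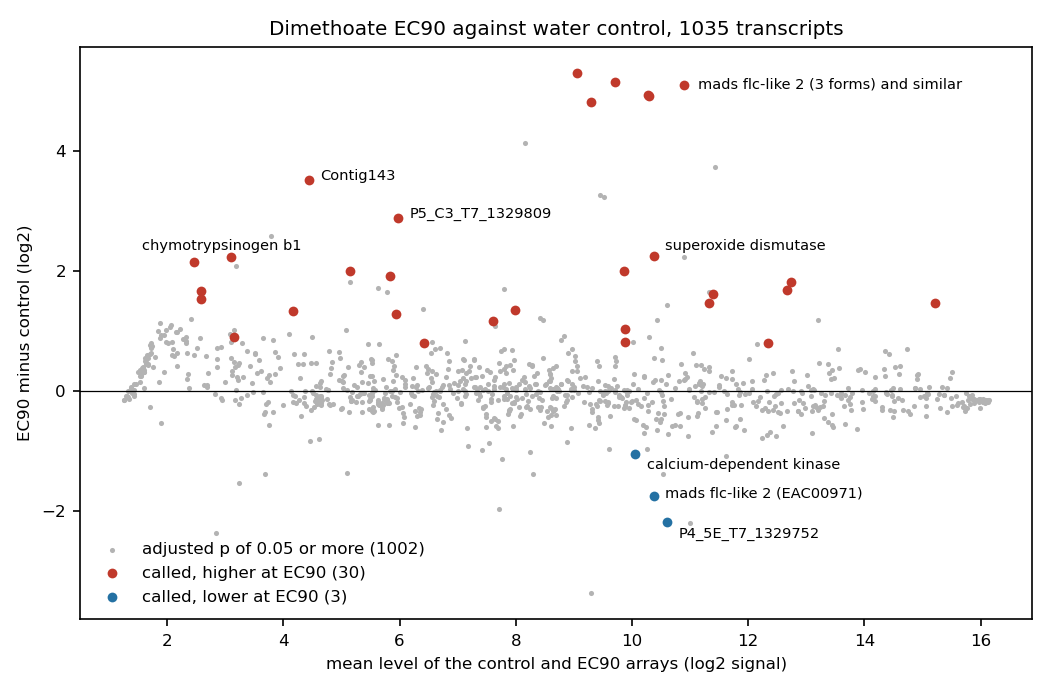
Change at dimethoate EC90 (EC90 minus control, log2, vertical axis) of 1035 transcripts against the mean level of the control and EC90 arrays (log2 signal, horizontal axis). Red and blue points are the 30 higher and 3 lower transcripts called by limma and grey points are the others. All 6 called points above 4 log2 lie in the middle of the level range, and most points at its dim left end lie above 0.

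Superoxide dismutase (EAC00791) had the lowest adjusted p of the 1035 transcripts. Its level was 9.05, 9.40 and 9.28 log2 on the control arrays and 11.88, 10.94 and 11.69 at EC90. The highest control array was thus more than 1 log2 below the lowest EC90 array. The rise was 2.26 log2 (SE 0.30, adjusted p = 1.06e-05, limma), a 4.8-fold difference. The level was also higher than in the solvent control, where the arrays gave 9.23, 8.87 and 9.93, by 2.16 log2 (SE 0.30, adjusted p = 1.62e-05). At EC50 it was 9.98, 10.27 and 10.08, between the control and EC90. The EC90 level was 1.39 log2 (SE 0.30, adjusted p = 0.047) above that of EC50, and this was the single transcript called between the 2 concentrations (0.0966% of those tested, beside 62 or 5.99% at an unadjusted p under 0.05). That call was close to the threshold and was lost when EC90 replicate 1 or 3 or any EC50 array was left out. At EC10 and EC20 the mean levels were 9.20 and 9.21, beside 9.24 in the control, and 9.58 and 9.45 without the 2 deviating arrays. With the slide as a block the rise against the control was 2.23 log2 (adjusted p = 0.0044). Of the other 5 transcripts of the antioxidant and defence list (2 lectins of the C type, a galactose-binding lectin, a tyrosinase-like protein and lysozyme) none was called, with changes between -0.40 and 0.74 log2.

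Among proteins that fold, cut or release other proteins, 3 transcripts were called, and the 2 dimmest of them rested on faint signals. The eukaryotic peptide chain release factor subunit 1 (EAC00826), which ends translation at stop codons, had levels of 5.13, 5.30 and 5.44 log2 in the control and 6.80, 6.10 and 6.83 at EC90. All EC90 arrays were above all control arrays, with replicate 2 nearest to them. The rise was 1.29 log2 (SE 0.31, adjusted p = 0.0099), it was also 1.29 log2 against the solvent control (SE 0.31, adjusted p = 0.014), and EC50 was intermediate at 6.07 ± 0.04 (SD, n = 3). The call was lost without control replicate 1 or EC90 replicate 1 or 3, with an adjusted p of up to 0.089, and with the slide as a block, where the rise was 1.14 log2 (adjusted p = 0.43). The other 4 translation factors on the array list, among them elongation factor 1-alpha, were not called and lay between -0.15 and 0.42 log2.

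Chymotrypsinogen b1 (EAC00267), the precursor of a digestive protease, was not well above background on any control array, with 1.52, 1.16 and 1.48 log2, nor on EC90 replicate 2. The EC90 arrays gave 3.85, 2.88 and 3.90. The groups did not overlap (adjusted p = 0.00038). On the same EC90 arrays the medians of the 124 dim transcripts were 1.60, 1.69 and 3.42. The part of the dim shift in this rise was not tested. Because the control is not measured above background and the bound is below a fold of 1, no fold is given. Its call against the solvent control (adjusted p = 0.014) has the same limit, and with normexp background correction the adjusted p against the water control was 0.85, with the slide as a block 0.066. The endoplasmic reticulum chaperone gp96 (EAC00097) was likewise not well above background in the control, with 1.93, 1.54 and 1.95, and was so on 1 array at EC90, where the levels were 3.24, 2.67 and 4.12. It had the largest adjusted p of the called transcripts, 0.0496, which became 0.45 without EC90 replicate 3, and of the 6 omissions only that of EC90 replicate 2 kept the call. With the slide as a block the adjusted p was 0.64. Heat shock protein 90 (EAC00488), the cytosolic relative of gp96, was measured well above background and had levels of 5.16, 5.33 and 5.26 in the control and 6.14, 5.91 and 6.07 at EC90. These arrays did not overlap, yet the difference of 0.79 log2 (SE 0.37) had an adjusted p of 0.47. It was 0.069 without the 2 deviating arrays and 0.79 without control replicate 3 (limma). Against the solvent control, whose arrays gave 5.01, 3.69 and 4.59, heat shock protein 90 was 1.61 log2 higher (SE 0.37, adjusted p = 0.0095). Of the 8 chaperones 1, the dim gp96, was called higher (2.9% of all transcripts) and 0 lower, 7 lay above 0 (5 with quantile normalization), and their median was 0.31 log2 (0.20 with quantile normalization, 0.13 with normexp background correction) beside -0.02 for all transcripts. In the proteolysis list 1 of 7 was called, beside 3.19% of all transcripts, and the median was 0.44 log2 (0.16 with quantile normalization, 0.25 with normexp background correction or without EC90 replicate 1), with proteasome isoform a (EAC00632) at 0.58 and cathepsin b (EAC00222) at 0.44.

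Of the 4 transcripts for proteins that assemble or bundle actin filaments 3 had positive differences, and 1 of these passed the test. Arp2 (EAC00006, named after the sea urchin protein) had levels of 5.97, 6.10 and 5.96 log2 in the control and 6.95, 6.60 and 6.92 at EC90. The gap between the groups was wider than the range of either. The rise was 0.81 log2 (SE 0.20, adjusted p = 0.013), or 1.75-fold, and 0.73 log2 against the solvent control (SE 0.20, adjusted p = 0.037). With 75th percentile scaling its adjusted p was 0.12, with the slide as a block 0.22, and it was above the threshold without control replicate 1 or 3 or EC90 replicate 1 or 3. The 41 kDa subunit of the Arp2/3 complex (EAC00396) was 1.03 log2 higher with an adjusted p of 0.15. Plastin 3 (EAC00179), an actin-bundling protein that was not well above background on any of the 6 arrays, had an adjusted p of 0.058, and thymosin (EAC00210) was at -0.20 log2. The median of these 4 was 0.88 log2, which was 0.53 with quantile normalization and 0.20 with normexp background correction. Actin itself was represented by 20 transcripts, of which 0 were called, with a median of 0.03 log2. The lowest was a beta actin (EAC00523), with 8.00, 8.86 and 9.21 in the control and 6.84, 6.00 and 7.36 at EC90, a difference of -1.95 log2 whose SE of 0.78 left the adjusted p at 0.29, followed by actin EAC00139 at -0.70 log2 (adjusted p = 0.70).

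A calcium-dependent protein kinase (EAC00697) fell by 1.05 log2 (SE 0.21, adjusted p = 0.0017). Kinases of this name phosphorylate targets when calcium rises. Its levels were 10.49, 10.64 and 10.62 log2 in the control and 9.63, 9.24 and 9.72 at EC90. The control arrays were within 0.2 log2 of each other and all EC90 arrays were lower. EC50 lay between them at 9.91 ± 0.15 (SD, n = 3). Against the solvent control the difference was -0.76 log2 (SE 0.21, adjusted p = 0.042). With the slide as a block it was -1.08 log2 with an adjusted p of 0.080. The array holds a transcript named cholinergic beta polypeptide 4 (EAC00178), a subunit name of the nicotinic acetylcholine receptor, the receptor on which accumulated acetylcholine acts. It was not well above background on any control array and was so on 1 EC90 array, with 2.51, 2.47 and 3.11 against 3.47, 3.06 and 4.01, and the groups overlapped (adjusted p = 0.64).

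**Figure D2:**
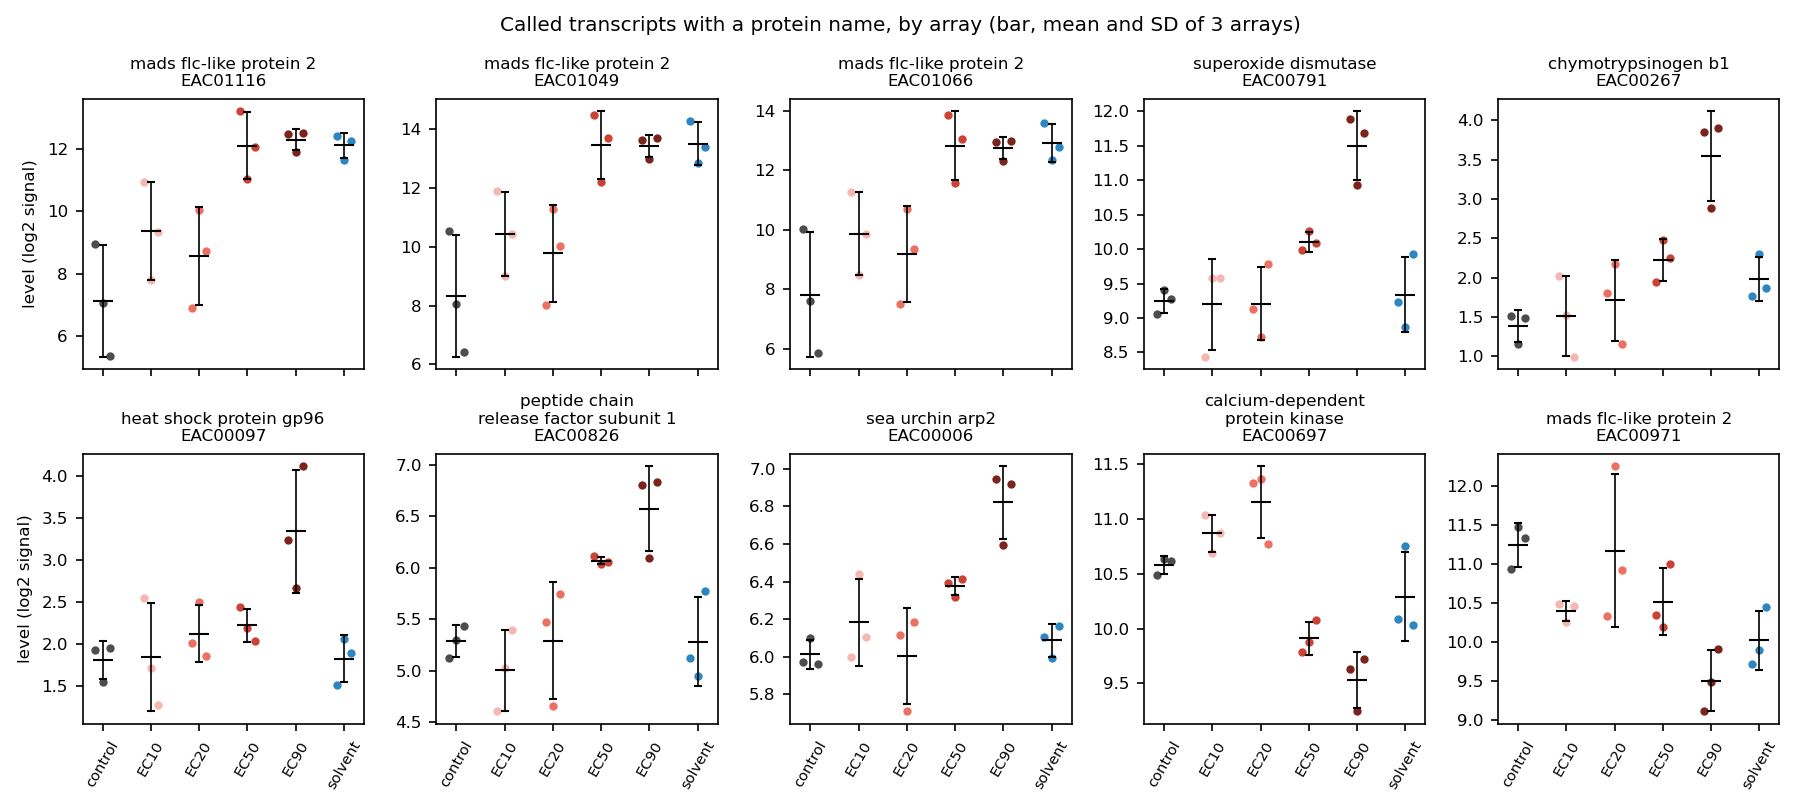
Levels (log2 signal, vertical axes) of the 10 called transcripts with a protein name in the water control, the 4 dimethoate concentrations and the solvent control. Points are arrays, and bars give the mean and SD of 3 arrays. Superoxide dismutase, the release factor and Arp2 are highest at EC90, with the solvent control near the water control, whereas in the 3 upper mads flc-like panels EC50, EC90 and the solvent control share a level.

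The transcripts with the largest rises were forms named mads flc-like protein 2, together with unnamed sequences that behaved alike. The name refers to a regulator of flowering in plants, and no role in worms is known from the sources used here. For EAC01049 the control arrays gave 10.54, 8.07 and 6.41 log2 and the EC90 arrays 13.62, 12.99 and 13.69. Replicate 1 was the highest and replicate 3 the lowest control array, and the groups were 2.45 log2 apart at their nearest. In all 6 transcripts with rises above 4 log2 the control arrays stood in this order. These 6 had a median control range of 4.13 log2, against 0.37 for all transcripts and 0.69 for the same 6 at EC90. The gap between the lowest EC90 and the highest control array was still 1.93 to 3.05 log2. For EAC01049 EC10 gave 11.89, 9.02 and 10.44, and EC20 gave 8.02, 11.30 and 10.03. Neither was called against the water control (adjusted p = 0.54 and 0.53, limma). The solvent control gave 14.28, 12.84 and 13.40, and EC50 gave 14.47, 12.21 and 13.72. This untreated solvent control was itself 5.17 log2 above the water control (SE 1.04, adjusted p = 0.0054, limma). EC90 differed from the solvent control by -0.08 log2 in EAC01049 (adjusted p = 0.96), and by -0.18 to 0.54 log2 in the 6. Against the control array of the same slide, which was the lowest control, the rises of the 6 were 6.84 to 7.02 log2. Without control replicate 3 they were smaller, 4.13 log2 for EAC01049 (adjusted p = 0.042), 4.28 for EAC01116 (adjusted p = 0.027), and 3.95 for EAC01066, whose adjusted p of 0.052 missed the threshold. Among the unnamed ones Contig167 rose by 4.81 log2 (SE 1.04, adjusted p = 0.0029), and its adjusted p was 0.073 without the same array. EAC01066 and the unnamed Ealb_Pest_P6_H1_SP6_2092020 differed by at most 0.036 log2 on any of the 42 arrays, so they may not be separate transcripts.

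Not every mads flc-like form moved this way. Of 14 transcripts with the name 3 were called higher and 1 lower, beside 2.9% and 0.29% of all transcripts, and the other 10 lay between -0.42 and 0.73 log2. The form that fell, EAC00971, had levels of 10.93, 11.47 and 11.34 log2 in the control and 9.12, 9.48 and 9.91 at EC90. The groups were separated by about 1 log2. The fall was by 1.74 log2 (SE 0.45, adjusted p = 0.017), a 3.35-fold difference. The solvent control also lay below the water control, with 9.72, 9.90 and 10.45, and from it EC90 differed by -0.52 log2 (adjusted p = 0.51). The adjusted p was 0.096 without control replicate 2, 0.081 without control replicate 3, 0.13 without EC90 replicate 1, and 0.19 with the slide as a block.

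The 23 called transcripts without a protein name all rose except 1. Contig143 was not well above background on any control array, with 3.65, 1.91 and 2.48 log2, and was so on all EC90 arrays, with 6.46, 6.04 and 6.10. It was at least 5.88-fold higher (adjusted p = 0.0012) when the control was set to the lowest signal well above background on each array, and with the slide as a block its adjusted p was 0.060. P5_C3_T7_1329809 gave 4.46, 4.64 and 4.50 in the control and 7.63, 7.17 and 7.45 at EC90. Both groups were narrow, and the rise was 2.88 log2 (SE 0.48, adjusted p = 0.00024). Unlike Contig143, which was within 0.55 log2 of the solvent control, it was also higher than that group, by 1.95 log2 (SE 0.48, adjusted p = 0.015), and the EC50 mean of 5.92 was intermediate. Contig92 was not well above background in the control (1.75, 2.03 and 2.14) and was so on 2 EC90 arrays (4.36, 3.93 and 4.34, adjusted p = 0.00024, limma). With the control set as for Contig143 it was 1.48-fold higher. The EC90 mean used for this includes replicate 2, which was not well above background. The part of the dim shift in this rise was not tested. The largest called fall was that of P4_5E_T7_1329752, with 11.57, 11.90 and 11.61 in the control, 10.07, 10.50 and 11.39 at EC50 and 9.22, 9.59 and 9.72 at EC90. The EC90 arrays were lower than all control and EC50 arrays. It was 1.40 log2 below the solvent control (SE 0.39, adjusted p = 0.042). The bright P1_E11_T7_1328882, at 14.75, 14.50 and 14.17 in the control and 15.77, 16.16 and 15.90 at EC90, was higher on all EC90 arrays (adjusted p = 2.3e-05) but saturated on 2 of them, so the size of its rise is not given. Its solvent control, at 15.48, 15.53 and 15.29, was also called against the water control (adjusted p = 0.0074, limma). EC90 was not called against the solvent control (adjusted p = 0.21). By origin, 4.04% of the 198 sequences whose identifier begins with Ealb_Pest were called, 1.16% of the 345 that begin with Ealb_Met, 4.09% of the 171 contigs and 4.36% of the remaining 321.

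**Figure D3:**
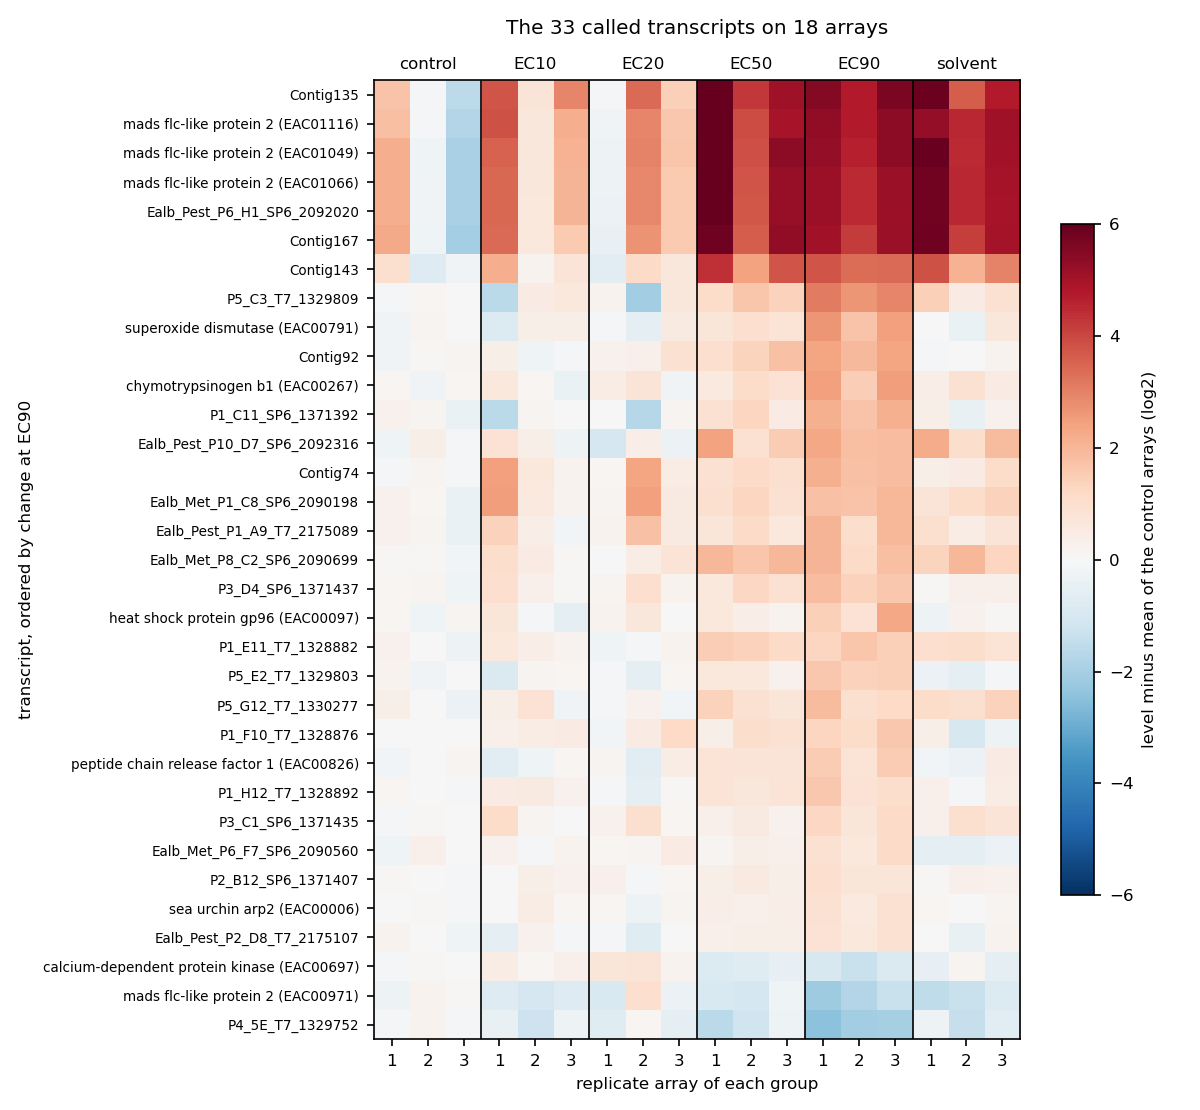
Level of each of the 33 called transcripts (rows, ordered by change at EC90) on the arrays of 6 groups (columns, 3 replicates per group), as log2 difference from the mean of the 3 water control arrays. The top 7 rows are red at EC50, at EC90 and in the solvent control, with smaller and uneven differences at EC10 and EC20. Most rows below them are strongest at EC90.

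Since the study held a second untreated group, the EC90 arrays were also compared with the solvent control. This comparison shares the EC90 arrays with the main one, and it differs from it by the acetone, by the slides and by the days of scanning. It yielded 28 higher and 4 lower transcripts, 3.09% of those tested. Of the 33 transcripts called against the water control 16 were also called against the solvent control, in the same direction, which is 48.5% of the former and 50.0% of the latter list. These 16 were 14 rises and 2 falls, and the 5 with a name were superoxide dismutase, chymotrypsinogen b1, the release factor, Arp2 and the calcium-dependent protein kinase. Against the water control 11 of the 16 remained called whichever of the 6 arrays was left out. The calls against the solvent control were less stable, since their number fell to 0 with the slide as a block (33 at an unadjusted p under 0.05, limma), to 9 with normexp background correction and to 10 without solvent control replicate 2 or EC90 replicate 3. The other 17 differed from the solvent control by -0.52 to 1.52 log2, and in 9 of them the solvent control was itself called against the water control, as it was in 1.84% of all transcripts. That count is no independent evidence. The 17 were chosen by a call against water and none against the solvent control, on the same arrays. The 10 transcripts called at both EC50 and EC90 were all among these 17. Transcripts called against the solvent control alone were 16, among them heat shock protein 90 and the pentose phosphate enzyme transketolase (EAC00207), which had an adjusted p of 0.0028 there and 0.11 against the water control.

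**Figure D4:**
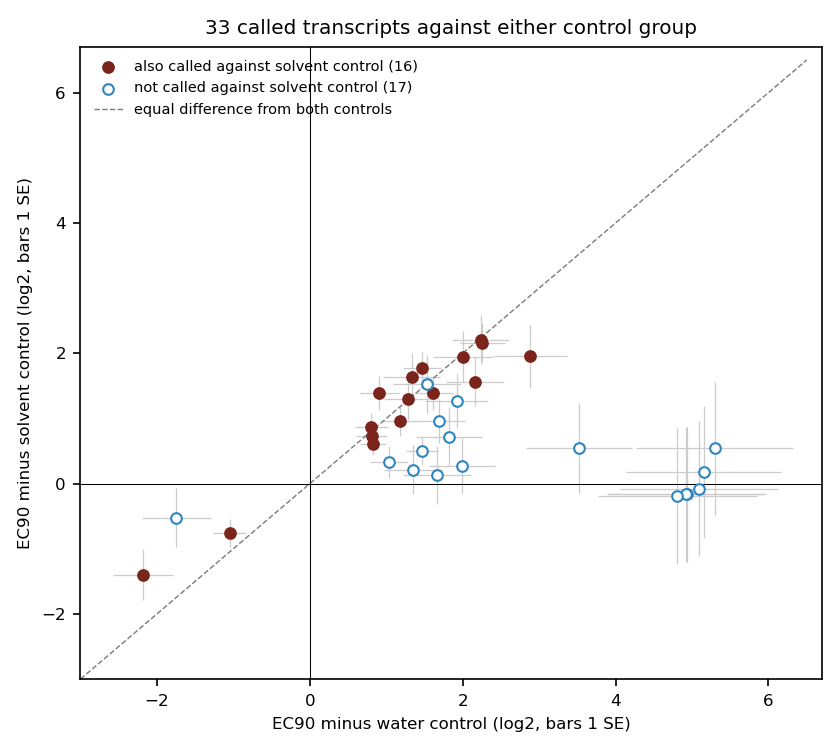
Difference of EC90 from the water control (horizontal axis) and from the solvent control (vertical axis), in log2 with bars of 1 SE, for the 33 called transcripts. Filled points are the 16 also called against the solvent control and open points the 17 that were not. The 6 largest rises against water lie between -0.18 and 0.54 on the vertical axis, while most filled points lie near the dashed line of equal differences.

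At EC10 and EC20 the means of the 33 transcripts lay closer to the control than at EC90. At EC50 this held for 26 of the 33. Among the others was EAC01049, at 5.12 log2 above the control at EC50 and 5.09 at EC90. In the direction of the EC90 change, their median difference from the same control arrays was 0.41 log2 at EC10 and 0.33 at EC20 (0.31 and 0.28 without the 2 deviating arrays) and 0.93 at EC50, beside 1.75 at EC90, the contrast that chose them. At EC10 and EC20 17 of them lay within 0.5 log2 of the control at both, and 21 did so without the 2 deviating arrays. At EC50, compared with the same control arrays, 10 of the 33 were called, beside 1.55% of all transcripts. In 17 of the 30 rises and 3 of the 3 falls the EC90 arrays did not overlap the EC50 arrays, compared with 21.5% of all transcripts in either direction, though the EC90 arrays had served to choose the 33. With the slide as a block, or with control replicate 3 as the only control, the difference is taken from that 1 control array, which is assumed to vary like the arrays of the other groups. In the first of these fits 16 of the 33 remained called and in the second 17. Without control replicate 3 21 of the 33 remained, without EC90 replicate 1 or 3 23, without EC90 replicate 2 33, and 19 remained called in each of the 6 omissions.

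The transcripts with a protein name were sorted into 18 lists by function. The study gave names to transcripts that it had selected on these same arrays, so the counts of these lists are no independent evidence. The 20 transcripts of the respiratory chain and ATP synthase, which make ATP in mitochondria, lay mostly below 0, with 0 calls by limma (1 at an unadjusted p under 0.05). Of these 17 lay below 0, as did 51.8% of all transcripts, and in 11 of 20 all EC90 arrays were below all control arrays, against 109 of 1035 transcripts. Their median was -0.18 log2, beside -0.02 for all transcripts. It was -0.25 with 75th percentile scaling, -0.18 with quantile normalization, -0.09 with normexp background correction and -0.15 with the slide as a block. A subunit of cytochrome c oxidase (EAC00068), the terminal enzyme of the chain, gave 13.00, 13.14 and 13.13 log2 in the control and 12.71, 12.70 and 12.75 at EC90. These narrow groups differed by -0.37 log2 (SE 0.15, adjusted p = 0.26). The ATP synthase e chain (EAC00665) was at 13.78, 13.78 and 13.72 in the control and 13.27, 13.13 and 13.11 at EC90 (adjusted p = 0.67). Without the 2 deviating arrays the adjusted p was 0.041 for EAC00068, which was then called, and 0.067 for EAC00665 (limma). With those arrays kept and control replicate 3 left out, the adjusted p was 0.69 for EAC00068 and 0.95 for EAC00665 (limma). The list median was also -0.18 at EC50 and was -0.38 against the solvent control. At EC20 and EC10 it was 0.48 and 0.36, values that rest on the 2 deviating arrays, since without them it was 0.06 and -0.06.

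Ribosomal proteins and the contractile apparatus had medians nearer to 0. Of 20 ribosomal proteins 0 were called, and their median was -0.07 log2, which became 0.07 with the slide as a block. The 2 with the lowest p were L19 (EAC00280) at 0.40 log2 (adjusted p = 0.91) and a 40S protein (EAC01014) that was not well above background in the control. Of the 21 transcripts for myosin, tropomyosin, troponin and calponin 0 were called, with a median of 0.00. A calponin or transgelin (EAC00494), an actin-binding protein of smooth muscle in vertebrates, was the transcript just outside the threshold. It had 5.78, 5.76 and 5.63 in the control and 7.28, 6.73 and 7.24 at EC90, a difference of 1.36 log2 (SE 0.40, adjusted p = 0.057). The groups were more than 0.9 log2 apart. Without the 2 deviating arrays EAC00494 was called (adjusted p = 0.022, limma). With those arrays kept and EC90 replicate 1 left out, its adjusted p was 0.25 (limma). Troponin T (EAC00496), which ties the calcium switch to the thin filament, was at -0.61 log2 (adjusted p = 0.42). The 5 sarcoplasmic calcium-binding proteins, calcium buffers of invertebrate muscle, lay between -0.21 and 0.11 log2, with scbp2 (EAC01038) at levels of 15.69 to 15.98 on the 6 arrays and saturated on 1 EC90 array.

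**Figure D5:**
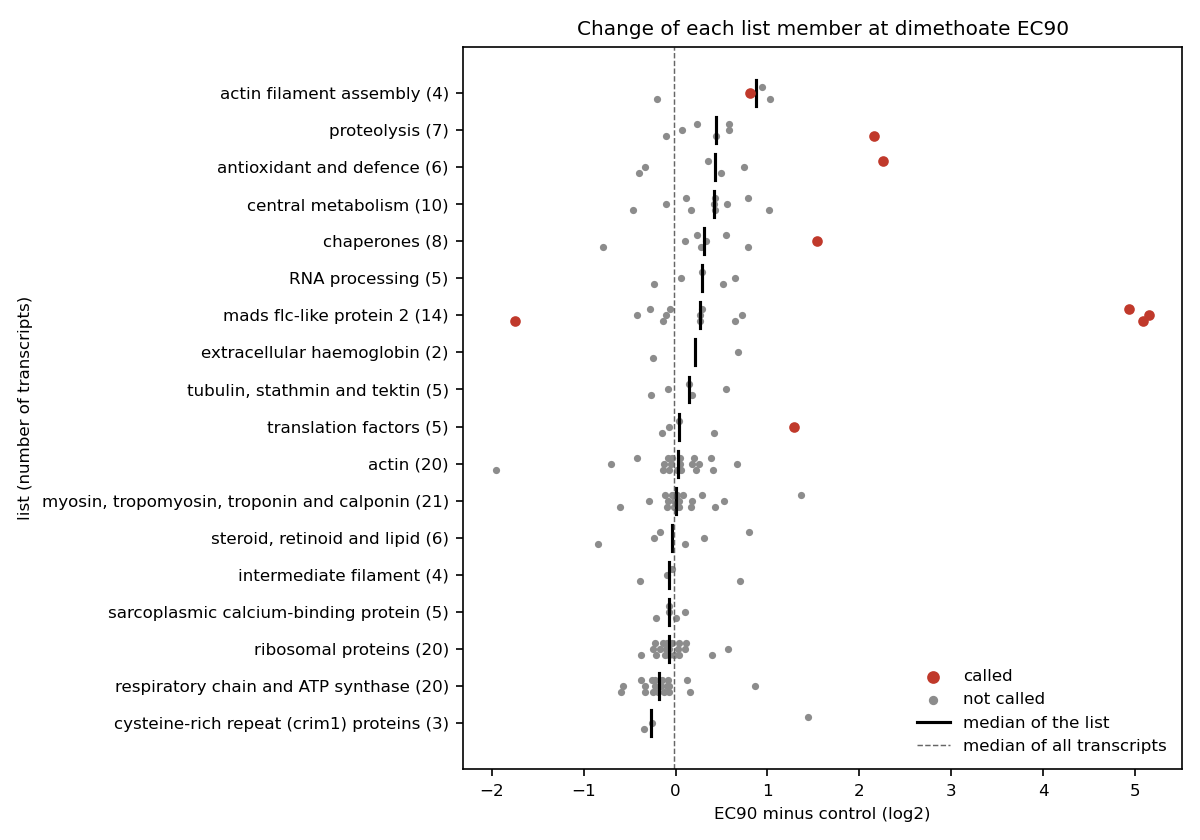
Difference between EC90 and control (log2, horizontal axis) of each transcript in 18 lists (vertical axis, number of transcripts in brackets). Red points are called, black bars are list medians and the dashed line is the median of all transcripts at -0.02. The respiratory chain and ATP synthase points lie mostly left of the line, and the called points of the mads flc-like list lie at both ends of the range.

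In the list of steroid, retinoid and lipid metabolism 0 of 6 transcripts were called. Sec14-like 2 (EAC00716), a lipid-binding protein, had 9.39, 9.13 and 9.37 log2 in the control and 8.63, 8.61 and 8.13 at EC90. The groups did not overlap, and the difference of -0.84 log2 (SE 0.26) had an adjusted p of 0.079 (limma). It was 0.027 with 75th percentile scaling and 0.022 with quantile normalization. These 2 settings moved the differences of all transcripts by a median of -0.074 and -0.075 log2. Without EC90 replicate 3 the adjusted p of sec14-like 2 was 0.45 (limma). Retinol dehydrogenase 3 (EAC00387), which oxidises vitamin A alcohol, was not well above background in the control. It gave 2.43, 2.68 and 2.56 there and 2.43, 2.45 and 3.71 at EC90, so that only the raised EC90 replicate 3 stood out (adjusted p = 0.98). An acyl-coenzyme A enzyme (EAC00681) showed the same pattern with 1.22, 1.55 and 3.61 at EC90.

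The central metabolism list had a median of 0.42 log2 with 0 of 10 called, which was 0.03 with normexp background correction. Transketolase was not well above background in the control and was so on 2 EC90 arrays, and betaine-homocysteine methyltransferase 2 (EAC00486), which regenerates methionine, was at 0.79 log2 (adjusted p = 0.29). The haemoglobin of these worms is a giant extracellular protein in the blood. A chain of it (EAC00421) gave 4.59, 4.67 and 4.10 in the control and 5.22, 4.83 and 5.34 at EC90, a difference of 0.68 log2 (SE 0.22, adjusted p = 0.098), while a linker subunit (EAC00261) ranged from 8.23 to 10.57 at EC90 and overlapped the control. Without the 2 deviating arrays EAC00421 was called (adjusted p = 0.038, limma) and EAC00261 was not (0.93). With those arrays kept and control replicate 3 left out, the adjusted p of EAC00421 was 0.69 (limma). A crim1-like protein (EAC00415), named after a membrane protein with cysteine-rich repeats, gave 10.35, 9.91 and 9.41 in the control and 11.92, 11.37 and 10.69 at EC90. Its difference was 1.44 log2 (SE 0.55, adjusted p = 0.24) at EC90 and 2.21 log2 at EC50, where it was called (adjusted p = 0.026), and the other 2 of this list were below 0, one of them EAC00042 at -0.34.

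The remaining lists had 0 calls with all arrays in the fit. Beta tubulin (EAC00377) was at 0.55 log2 (adjusted p = 0.67) and stathmin (EAC00992), which takes microtubules apart, at -0.26 (adjusted p = 0.93). The 4 intermediate filament proteins had a median of -0.07 log2, with EAC00371 at 0.70 (adjusted p = 0.79) and EAC00999 at -0.38. Without the 2 deviating arrays EAC00371 was called (adjusted p = 0.014, limma) and EAC00999 was not (0.45). With those arrays kept and control replicate 3 left out, the adjusted p of EAC00371 was 0.999 (limma). In RNA processing the median of 5 was 0.29 log2, which was 0.00 with normexp background correction, with the rRNA-processing protein fcf1 (EAC00854) at 0.64 (adjusted p = 0.47) and the splicing factor lsm3 (EAC00831) at 0.29 (adjusted p = 0.79). Without the 2 deviating arrays fcf1 was called (adjusted p = 0.0069, limma) and lsm3 was not (0.45). With those arrays kept and control replicate 2 left out, the adjusted p of fcf1 was 0.79 (limma). On either side of the threshold the called transcripts with the largest adjusted p were gp96 at 0.0496, P5_G12_T7_1330277 at 0.039 and P1_F10_T7_1328876 at 0.037. The first that were not called were the calponin or transgelin at 0.057, plastin 3 at 0.058, the unnamed Ealb_Met_P9_H8_SP6_2090746 at 0.071 and sec14-like 2 at 0.079. In this order their adjusted p was 0.022, 0.033, 0.0040 and 0.052 without the 2 deviating arrays (limma). With those arrays kept, the largest adjusted p when a single control or EC90 array was left out was 0.25, 0.55, 0.37 and 0.45 (limma).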

How the data were processed

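Adult worms were hybridised to one-colour Agilent arrays, with 500 ng RNA labelled per array and 60-base probes. The authors deposited scanner files of Cy3 intensity values made with Agilent Feature Extraction 10.5.1.1, in which the processed signal is background-subtracted and detrended, and a value table of the same intensities. Control spots and outlier spots (431 to 929 of 15208 on the 6 arrays) were dropped here, spots of a transcript were averaged, and log2 values were shifted to a common median. limma 3.58.1 in R 4.3.3 fitted 14 group means to all 42 arrays (28 residual degrees of freedom), and p-values were adjusted over 1035 transcripts. They rest on the spread between arrays of the same group, pooled over the 14 groups. Arrays of a group could differ in slide and scan. Vessels of a dimethoate concentration shared 1 batch of soil, so differences between batches are not measured. The small number of arrays limits the precision.

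Protein names were carried over from a supplementary table of the study by matching its ratios to the arrays (225 of 225 matched). The ratios served only for this match and none is reported. IDs that begin with Ealb_Pest or Ealb_Met are named as in the files. Named are all called transcripts with a protein name, the 5 largest unnamed rises and all falls, the called members of 18 lists or otherwise their 2 lowest p-values, and 5 single transcripts. Contig92, P1_E11_T7_1328882, proteasome isoform a, cathepsin b, thymosin, the transcripts nearest to the threshold and a few others were added after their values were seen. The members and lists were chosen with earlier results of these data known. The alternatives were 75th percentile scaling, quantile normalization, normexp background correction (offset 50, on median signals), a filter on dim transcripts, slide or day as a block, the replicate block, the methods' t-test and leaving out arrays. The scripts were tested on simulated data.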

Additional observations from a re-analysis of the deposited data

Results flagged for a closer look

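Superoxide dismutase (EAC00791) differed between the concentrations of dimethoate. Its rise over the water control was 1.39 log2 larger at EC90 than at EC50 (SE 0.30, limma, adjusted p = 0.047), and all 3 EC90 arrays lay above all 3 EC50 arrays. The call was lost with the slide or the day of scanning as a block, with only the groups compared, and without EC90 replicate 1 or 3 or any EC50 array.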

How the results depend on the processing

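Against the water control the 33 calls became 51 (44 higher, 7 lower) without the deviating EC10 and EC20 arrays, when 33 of 33 were kept, 17 with the slide as a block, 18 against the control of the same slide alone, and 1 by the methods' t-test after adjustment (178 before it). Leaving out 1 array gave 21 (without control replicate 3) to 42 (without EC90 replicate 2). Against EC50 the single call became 3 without the deviating arrays, 5 with the slide block added to that, and 0 by limma with only the groups compared, with the slide or with the day as a block (125, 61 and 66 at an unadjusted p under 0.05). The methods' t-test gave 0 after adjustment and 129 before it, and leaving out 1 array 0 to 1. Against the solvent control 32 calls became 9 with normexp, 131 without the deviating arrays, 16 with the day as a block, 0 by limma with the slide as a block (33 at an unadjusted p under 0.05) or with the deviating arrays removed as well (47), and 0 by the t-test after adjustment (166 before it). Leaving out 1 array gave 10 to 34, with 10 without solvent control replicate 2 or EC90 replicate 3, 14 without EC90 replicate 1 and 21 without solvent control replicate 1. With 75th percentile scaling it was 40, all higher. The same-slide control and the slide block without the deviating arrays were chosen after seeing the data. The causes were not tested.

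Replicate numbers paired the samples too weakly to be used as pairs (same-number correlations of 0.17, 0.08 and 0.17). With the replicate block the calls were 33, 1 and 27 in the 3 comparisons. The 16 called transcripts that were chosen for naming, unnamed sequences among them, had 334 values under the alternatives. Of these 267 kept the call, 67 lost it and 0 changed sign. For the unadjusted t-test a kept call means only an unadjusted p under 0.05. The dim end limits 124 transcripts that were not well above background on any control array.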
